A study of Mus musculus with 6 samples.

Results

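The genes described here code for fatty acid omega-hydroxylases of cytochrome P450 family 4 in mouse liver. They are the 6 Cyp4a genes Cyp4a10, Cyp4a12a, Cyp4a12b, Cyp4a14, Cyp4a31 and Cyp4a32, the 3 Cyp4f genes Cyp4f13, Cyp4f14 and Cyp4f15, and Cyp4v3, taken by symbol as 10 of the 23412 rows of a table of raw read counts. Liver RNA was sequenced in 6 libraries of C57BL/6J mice, an inbred strain, labelled as 8 weeks of age. Every mouse had eaten a high-fat diet for 4 weeks. The treated group received liraglutide, a drug that activates the receptor of the gut hormone glucagon-like peptide 1, by injection under the skin at 300 µg/kg for 3 days (libraries Lira161, Lira162 and Lira164). The control group received phosphate-buffered saline, PBS (libraries PBS155, PBS157 and PBS158). The number in a library's name is that of its column. The labels give no sex. They also leave unsaid whether each library is a different mouse, and the p-values therefore describe the spread of these libraries, which may be technical.

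Omega-hydroxylases put a hydroxyl group on the last carbon of a fatty acid, using electrons passed on by cytochrome P450 reductase. Alcohol and aldehyde dehydrogenases then oxidise that end to a second carboxyl group, and the resulting dicarboxylic acids are shortened in peroxisomes. In rodent liver, Cyp4a10 and Cyp4a14 are classical targets of the nuclear receptor PPAR-alpha and respond to fasting. Some, not all, Cyp4a enzymes also turn arachidonic acid into 20-hydroxyeicosatetraenoic acid, and several Cyp4f enzymes inactivate leukotrienes and related eicosanoids.

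Library totals lay between 20888991 and 27007182 counts. Levels are given as CPM, that is counts brought to 1 library size with TMM factors, and groups were compared with edgeR's quasi-likelihood test across 12626 genes, with p-values adjusted by the Benjamini-Hochberg method and a threshold of 0.05. Hepatocyte markers summed to between 86000 and 103000 CPM under liraglutide and between 98400 and 118000 CPM under PBS, over the 9 of 10 listed genes in the table. Summed markers of 3 other cell types did not overlap between the groups. Adipocyte markers, 6 of 6 listed genes, were at 35.2 to 71.8 CPM under liraglutide and 15.6 to 23.3 CPM under PBS, mostly Plin4 and Fabp4, both called higher. The defining markers Adipoq, Plin1 and Lep had at most 3 counts in any library. The remaining marker Cfd had 2, 3 and 10 counts in Lira161, Lira162 and Lira164, against 55, 12 and 21 counts in PBS155, PBS157 and PBS158 (log2 fold change -2.47, edgeR adjusted p = 0.0544, called lower by DESeq2). Cholangiocyte markers, 6 of 6, were at 26.6 to 28.6 CPM under liraglutide and 42.0 to 50.9 CPM under PBS. Most of this was Spp1, called lower, at a mean of 20.5 CPM under liraglutide and 36.3 CPM under PBS. Sox9 was lower without passing edgeR's test (adjusted p = 0.148). Krt7, Krt19 and Epcam overlapped between the groups, and Cftr had at most 3 counts. Erythroid markers, 6 of 8, were at 17.7 to 39.8 CPM under liraglutide and 77.2 to 91.0 CPM under PBS, with the 4 globin genes in the table at 0 counts. Endothelial sums overlapped, at 224 to 349 CPM under liraglutide and 132 to 248 CPM under PBS, but 8 of 8 markers had a log2 fold change above 0 (median 0.74). Of these, edgeR called Clec4g higher (0.78, adjusted p = 0.0250), 4 had an unadjusted p below 0.05 and DESeq2 called 3. Kupffer cell and macrophage markers were at 213 to 346 CPM under liraglutide and 95.9 to 363 CPM under PBS, with 7 of 8 above 0 (median 0.53) and 0 called by edgeR or DESeq2 or at an unadjusted p below 0.05. The part of these cells in the values below was not tested, and in bulk tissue fewer cells of a type and less RNA per cell cannot be told apart.

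How far reads can be told apart between these genes bears on every value, so their coding sequences are shown first. All 10 symbols matched 1 gene of GENCODE M21 on build GRCm38, the same assembly as the mm10 named in the submitters' processing notes. The Cyp4a genes lie together on chromosome 4 and the Cyp4f genes on chromosome 17, while Cyp4v3 is alone on chromosome 8. The coding sequences of Cyp4a12a and Cyp4a12b were 98.5% identical, with 23 differing bases among 1524. Cyp4a10 was 97.2% identical to Cyp4a32 and 96.6% to Cyp4a31. Cyp4a14 was 77.9% identical to Cyp4a10. The 60 coding bases around the codon of the cysteine that holds the haem iron, found by its conserved surroundings, show this grouping. They are printed 5′ to 3′ on the coding strand and are joined across an intron. Capitals mark bases that differ from Cyp4a10 in the Cyp4a genes and from Cyp4f14 in the Cyp4f genes. The window of Cyp4v3 has no capitals because it was compared with none.
Cyp4a10, Cyp4a31 and Cyp4a32: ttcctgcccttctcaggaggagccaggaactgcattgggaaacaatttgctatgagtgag
Cyp4a12a and Cyp4a12b: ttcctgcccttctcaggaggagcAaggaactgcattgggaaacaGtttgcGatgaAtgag
Cyp4a14: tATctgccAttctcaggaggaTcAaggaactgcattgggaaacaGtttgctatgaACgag
Cyp4f14: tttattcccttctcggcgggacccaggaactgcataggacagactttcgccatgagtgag
Cyp4f13: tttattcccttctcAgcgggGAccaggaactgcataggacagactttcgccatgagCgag
Cyp4f15: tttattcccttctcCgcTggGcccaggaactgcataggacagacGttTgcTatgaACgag
Cyp4v3: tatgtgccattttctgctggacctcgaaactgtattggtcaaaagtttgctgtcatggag
The window lies at chr4:115529493-115532564 on the plus strand in Cyp4a10 and at chr4:115487278-115489814 on the minus strand in Cyp4a14, introns included. Over it, Cyp4a10, Cyp4a31 and Cyp4a32 did not differ by a single base, nor did Cyp4a12a and Cyp4a12b. Cyp4a14 differed from Cyp4a10 at 8 of the 60 bases.

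The next windows are the 60 coding bases with the most positions at which the genes of a near-identical set were not all alike. Within the coding sequence, reads can be assigned only where such bases occur. The parts of these transcripts outside the coding sequence, where reads may also tell copies apart, were not compared. Capitals mark bases that differ from the first gene of each set. In the Cyp4a10 set they are bases 200 to 259 of the coding sequence, at chr4:115519640-115519699 in Cyp4a10, chr4:115565020-115565079 in Cyp4a31 and chr4:115602270-115602329 in Cyp4a32, all on the plus strand and within 1 exon.
Cyp4a10: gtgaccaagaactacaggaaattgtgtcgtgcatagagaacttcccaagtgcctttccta
Cyp4a31: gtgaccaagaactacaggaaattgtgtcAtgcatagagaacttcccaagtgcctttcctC
Cyp4a32: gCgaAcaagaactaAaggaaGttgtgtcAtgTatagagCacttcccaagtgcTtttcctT
Cyp4a12a: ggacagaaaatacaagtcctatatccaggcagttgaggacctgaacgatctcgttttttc
Cyp4a12b: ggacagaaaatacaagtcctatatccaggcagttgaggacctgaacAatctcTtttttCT
The Cyp4a12 window covers coding bases 624 to 683 and crosses an intron, with its ends at chr4:115326309-115326681 in Cyp4a12a and chr4:115432561-115432934 in Cyp4a12b. In these windows Cyp4a32 differed from Cyp4a10 by 9 bases, Cyp4a31 from Cyp4a10 by 2, and Cyp4a12b from Cyp4a12a by 4. The first window was chosen over 3 genes together and not for the difference between Cyp4a31 and Cyp4a10 alone.

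Taken as stretches of 50 bases, 0.408% of the coding sequence of Cyp4a14 also occurred in a transcript of another gene, and 0 of 1422 stretches of 100 bases did. The shares of 50-base stretches were 40.5% in Cyp4a10, 31.6% in Cyp4a31, 46.7% in Cyp4a32 and 54.8% in both Cyp4a12 genes, and they lay between 3.03% and 3.87% in the Cyp4f genes. In Cyp4v3, 13.6% of them occurred in Gm45753, a transcript annotated on the same strand that shares up to 226 bp of an exon and has no row in the count table. The sources used here do not state how reads that match several genes were counted. The values of Cyp4a10, Cyp4a31, Cyp4a32, Cyp4a12a and Cyp4a12b are therefore uncertain as single genes, and the sums over near-identical genes are given beside them.

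**Figure D1:**
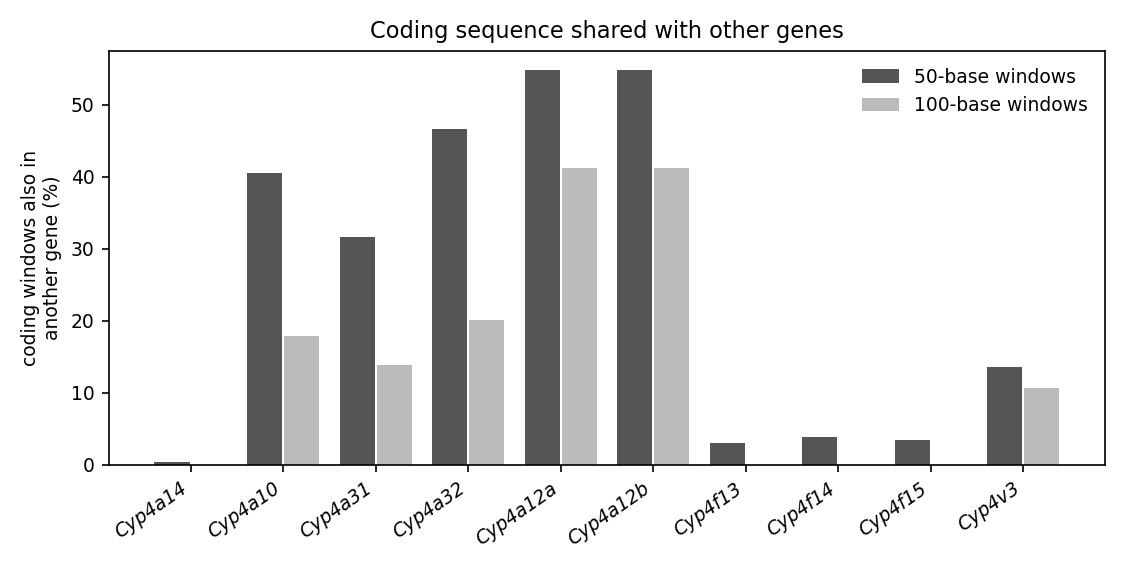
Share of coding windows of 50 bases (dark bars) or 100 bases (light bars) that also occur in a transcript of another gene, in percent, for each of the 10 genes. Cyp4a14 is near 0 at both lengths, while the Cyp4a12 genes reach 54.8% and 41.3%.

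Of the 10 genes, all of which passed the filter on low counts, Cyp4a14 rose and Cyp4v3 fell under liraglutide, and the other 8 did not pass the test. Over all genes tested, 8.77% passed it, 4.08% higher and 4.69% lower, and among these 10 genes 1 was higher and 1 lower. The higher count was 0 without Lira162, and 3 without PBS157 or with DESeq2. The lower count was 2 without Lira164, and 0 without Lira162 or any single PBS library. The number of genes called overall also moved, from 1107 to 393 without Lira162, 653 without PBS157 and 1621 with DESeq2. It was 1496 without Lira164, 962 without PBS155 and 414 without PBS158. The levels of liraglutide and PBS libraries did not overlap for Cyp4a14, Cyp4a10 and Cyp4a31, all higher, and for Cyp4v3, lower, that is 3 of 10 and 1 of 10. Of all genes tested, 31.3% did not overlap, 14.9% higher and 16.4% lower. The median log2 fold change of the 10 genes was 0.01, as was that of all genes tested (0.01).

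**Figure D2:**
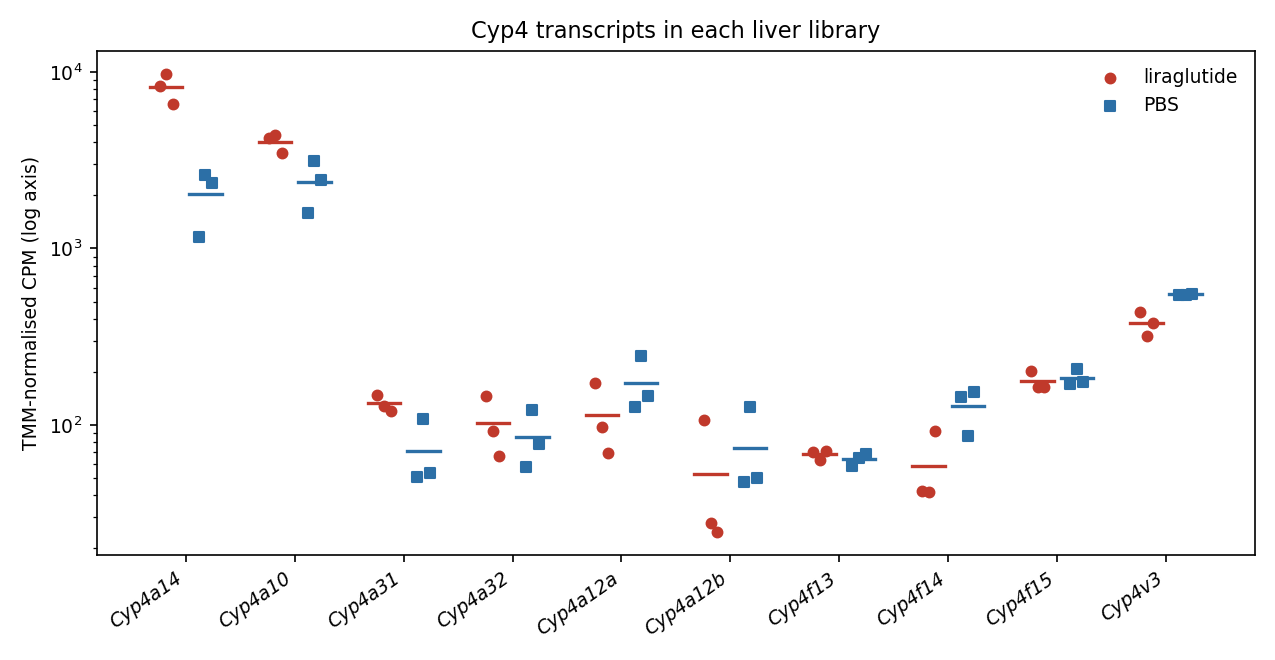
TMM-normalised CPM (log axis) of each gene in the 3 liraglutide libraries (red circles, left) and the 3 PBS libraries (blue squares, right), with the group mean as a bar. Cyp4a14 lies between 6611 and 9792 CPM under liraglutide and between 1157 and 2609.6 CPM under PBS, and the Cyp4f13 and Cyp4f15 groups overlap.

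Cyp4a14, which hydroxylates medium- and long-chain fatty acids such as lauric acid, was at 8337, 9792 and 6611 CPM in libraries Lira161, Lira162 and Lira164, against 1157, 2609.6 and 2355 CPM in libraries PBS155, PBS157 and PBS158. Every liraglutide library was above every PBS library, and PBS155 was the lowest of all. The gene (chromosome 4, 115486200 to 115496142, minus strand) averaged 8247 ± 1592 CPM under liraglutide and 2041 ± 776 CPM under PBS (SD, n = 3 each), a 4.04-fold difference (log2 fold change 2.01 ± 0.31, SE; edgeR adjusted p = 0.0116). By mean CPM it was the 10th most abundant of the tested transcripts under liraglutide and the 54th under PBS, and its log2 fold change ranked 48 among the 12626 genes tested. Without library Lira162 the log2 fold change was 1.86 and the adjusted p 0.0513, just over the threshold. That fit called 393 genes in all, the fewest with a library left out, against 1107 with every library. The call was kept in the other 5 fits with a library left out.

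Cyp4a10, its neighbour on chromosome 4 (115518264 to 115533649, plus strand) and likewise a lauric acid hydroxylase, was at 4242, 4398 and 3469 CPM in Lira161, Lira162 and Lira164 and at 1586, 3151 and 2429.9 CPM in PBS155, PBS157 and PBS158. The groups did not overlap, and the nearest pair was Lira164, the lowest with liraglutide, and PBS157, the highest with PBS. Means were 4036 ± 498 CPM under liraglutide and 2389 ± 783 CPM under PBS (log2 fold change 0.76 ± 0.23, adjusted p = 0.0832), so the difference did not pass the test. It passed without PBS157 (1.01, adjusted p = 0.0340) and with DESeq2's Wald test (0.75, adjusted p = 0.00598).

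Cyp4a31, a near copy of Cyp4a10 (chromosome 4, 115563649 to 115579015), was far less abundant, at 149, 129 and 120.2 CPM in the liraglutide libraries and 50.8, 108 and 53.5 CPM in PBS155, PBS157 and PBS158. All liraglutide libraries were again higher, with PBS157 the nearest of the controls. The means of 132 ± 14.5 CPM under liraglutide and 70.7 ± 32.2 CPM under PBS gave a log2 fold change of 0.91 ± 0.30 with an adjusted p of 0.123. Without PBS157 it was 1.34 (adjusted p = 0.00315), and DESeq2 gave 0.90 (adjusted p = 0.00381).

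Cyp4a32 (chromosome 4, 115600969 to 115621602), the other near copy, was at 146, 92.5 and 66.6 CPM in Lira161, Lira162 and Lira164 and at 57.8, 121 and 78.1 CPM in PBS155, PBS157 and PBS158. Its groups overlapped, with Lira161 and PBS157 the highest of their groups. The log2 fold change was 0.25 ± 0.38 (adjusted p = 0.729), and -0.11 without Lira161. With Cyp4a10, Cyp4a31 and Cyp4a32 summed into 1 row, the means were 4271 ± 534 CPM under liraglutide and 2545 ± 843 CPM under PBS (log2 fold change 0.75 ± 0.24, adjusted p = 0.0876).

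**Figure D3:**
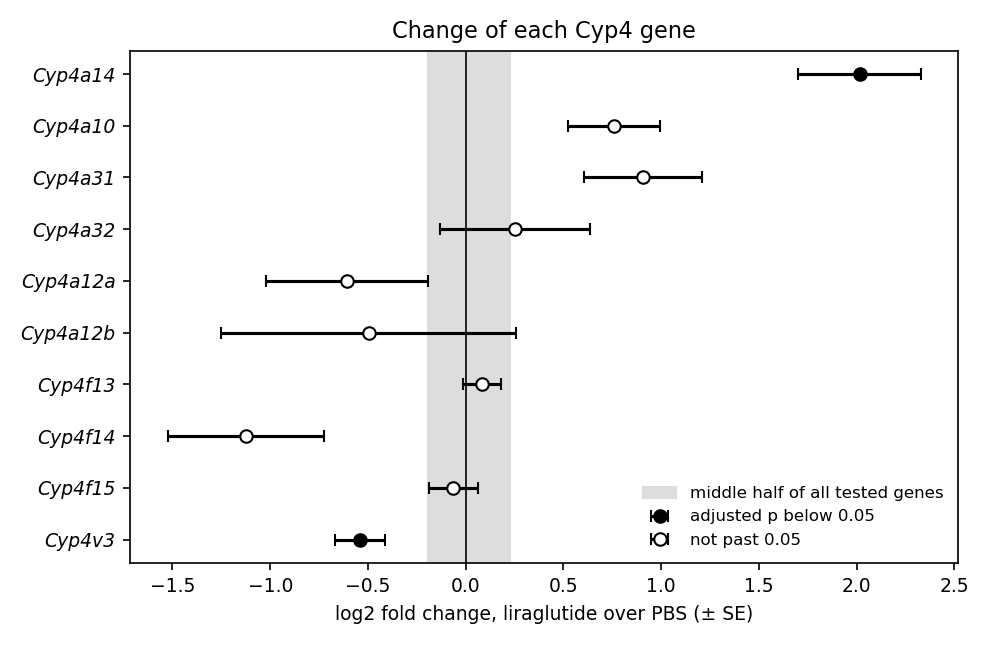
Log2 fold change of each gene, liraglutide over PBS, with its standard error from the edgeR fit. Filled points passed an adjusted p of 0.05, and the grey band spans the quartiles of all tested genes (-0.19 to 0.22). Cyp4a14 lies at 2.01 and Cyp4v3 at -0.54, and Cyp4f14 at -1.12 did not pass.

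Cyp4a14 held a larger share of the Cyp4a counts in each liraglutide library than in any PBS library. Of the summed Cyp4a counts, Cyp4a14 held 63.4%, 67.4% and 63.8% in Lira161, Lira162 and Lira164, and 38.2%, 41.0% and 46.1% in PBS155, PBS157 and PBS158. Cyp4a10 held 32.2%, 30.3% and 33.5% in those liraglutide libraries and 52.4%, 49.5% and 47.5% in those PBS libraries. Exact Clopper-Pearson intervals at 95%, which cover counting error only, were widest for Cyp4a10 in PBS155, from 52.1% to 52.8%. Cyp4a14 thus had more counts than Cyp4a10 in all 3 liraglutide libraries and fewer in all 3 PBS libraries. The log2 ratio of Cyp4a14 to Cyp4a10 averaged 1.02 ± 0.12 under liraglutide and -0.26 ± 0.21 under PBS (SD, n = 3 each), a difference of 1.28. The exact two-sided permutation test over libraries gave p = 0.1, the smallest that 3 against 3 allows, and 0.3 adjusted over the 6 pairs compared. The Cyp4a counts together made up 1.31%, 1.48% and 1.08% of all counts in Lira161, Lira162 and Lira164 and 0.306%, 0.627% and 0.486% in PBS155, PBS157 and PBS158.

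The ratios of the near copies to Cyp4a10 overlapped between the groups. The log2 ratio of Cyp4a31 to Cyp4a10 averaged -4.93 ± 0.15 under liraglutide and -5.11 ± 0.34 under PBS (exact permutation p = 0.5, n = 3 each). That of Cyp4a32 to Cyp4a10 averaged -5.38 ± 0.46 under liraglutide and -4.81 ± 0.13 under PBS (exact permutation p = 0.2, n = 3 each). With 3 libraries a group, a p that misses the threshold does not show that the copies changed alike.

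**Figure D4:**
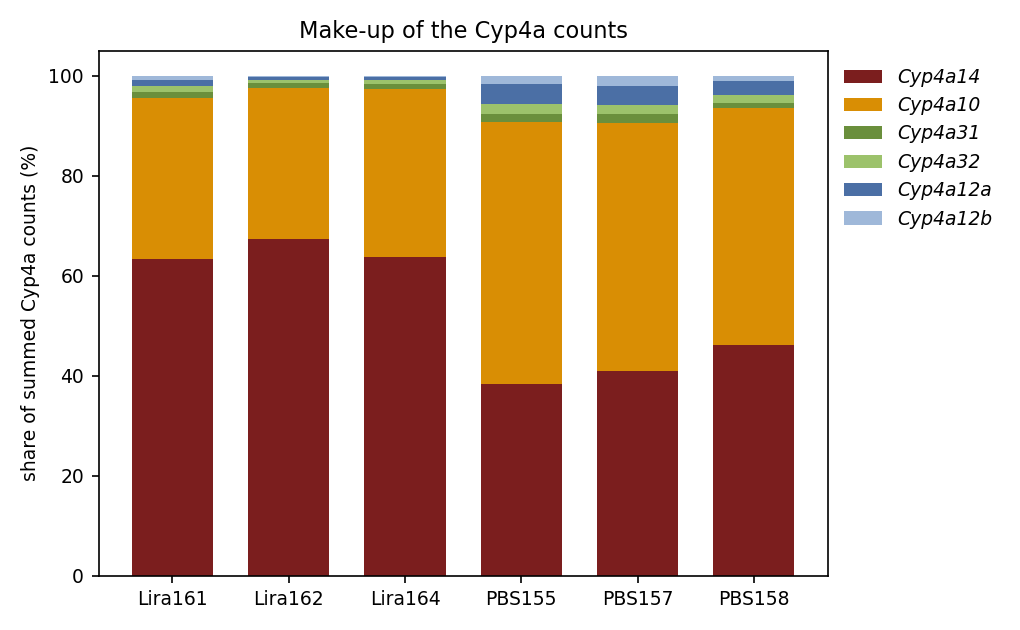
Share of the summed counts of the 6 Cyp4a genes held by each gene, in percent, in the 3 liraglutide libraries (left) and the 3 PBS libraries (right). Cyp4a14 takes 63.4% to 67.4% under liraglutide and 38.2% to 46.1% under PBS, with Cyp4a10 making up most of the rest.

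Cyp4a12a and Cyp4a12b, the copies with male-biased expression in mouse liver and kidney, varied within each group by more than the group means differed. Cyp4a12a (chromosome 4, 115299046 to 115332815) was at 173, 97.4 and 69.6 CPM in Lira161, Lira162 and Lira164 and at 127, 245 and 146 CPM in PBS155, PBS157 and PBS158. Cyp4a12b (chromosome 4, 115411624 to 115439034) was at 106, 27.6 and 24.8 CPM in those liraglutide libraries and 47.4, 126 and 50.1 CPM in those PBS libraries. In both genes Lira161 stood above the other liraglutide libraries and PBS157 above the other PBS libraries, and the groups overlapped. The log2 fold changes were -0.61 ± 0.41 (adjusted p = 0.422) and -0.50 ± 0.75 (adjusted p = 0.729), and their summed row gave -0.57 ± 0.52 (adjusted p = 0.549). Without PBS157, Cyp4a12b was at 0.11. The log2 ratio of Cyp4a12b to Cyp4a12a averaged -1.34 ± 0.57 under liraglutide and -1.31 ± 0.30 under PBS (exact permutation p = 0.9, n = 3 each).

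Likeness to other genes was measured as the root mean square difference of log2 CPM over the 6 libraries, each gene centred on its own mean, among 9246 genes outside the Cyp4 family with a mean of at least 5 CPM. The nearest to Cyp4a14 were Zfp9 (0.19), Tbc1d8 (0.23), 9430037G07Rik (0.25), 2010003K11Rik (0.34) and Ehhadh (0.35), the last of which codes for the bifunctional enzyme of peroxisomal fatty acid oxidation. The nearest to Cyp4a12a were Mup20 (0.19), which codes for the male urinary protein darcin, Gstp1 (0.21), a glutathione transferase gene, Nnmt (0.22), which codes for nicotinamide N-methyltransferase, Pou6f1 (0.27) and Col15a1 (0.27). These measures describe 6 libraries and carry no test. Like Cyp4a12a, all 5 genes nearest to it were at their group's highest level in Lira161 and in PBS157. They were picked for likeness over these same libraries, so the shared pattern is no separate result.

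**Figure D5:**
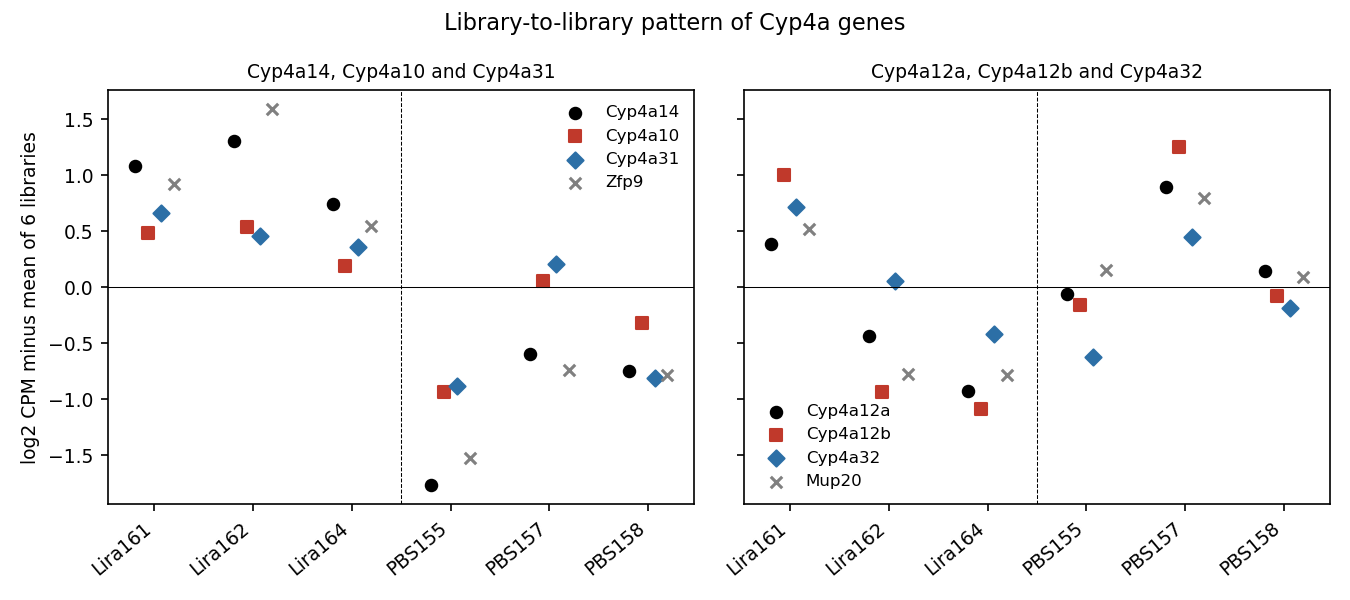
Log2 CPM minus the gene's mean over the 6 libraries, for Cyp4a14, Cyp4a10 and Cyp4a31 with the gene nearest to Cyp4a14 (left panel) and for Cyp4a12a, Cyp4a12b and Cyp4a32 with the gene nearest to Cyp4a12a (right panel), liraglutide libraries left of the dashed line. In the left panel Cyp4a14 is at 0.74 to 1.31 under liraglutide and -1.77 to -0.60 under PBS, and in the right panel Lira161 and PBS157 are the highest libraries of their groups.

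Among the Cyp4f genes none passed edgeR's test with Benjamini-Hochberg adjustment, 1 of 3 had an unadjusted p below 0.05 (Cyp4f14, lower), and DESeq2 called 0. Cyp4f14 (chromosome 17, 32905070 to 32917342, minus strand), whose product hydroxylates leukotriene B4, was at 42.0, 41.8 and 92.7 CPM in Lira161, Lira162 and Lira164 and at 144, 86.7 and 154 CPM in PBS155, PBS157 and PBS158. Library Lira164 stood above the other liraglutide libraries and just above PBS157, so the groups overlapped. Means were 58.8 ± 29.3 CPM under liraglutide and 128 ± 36.3 CPM under PBS (log2 fold change -1.12 ± 0.40, adjusted p = 0.154). Without Lira164 the log2 fold change was -1.62 (adjusted p = 0.0109).

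Cyp4f13 (chromosome 17, 32924688 to 32947402, minus strand), a neighbour of Cyp4f14, ranged from 63.2 to 71.2 CPM under liraglutide and from 58.8 to 68.6 CPM under PBS (log2 fold change 0.08 ± 0.10, adjusted p = 0.626). Cyp4f15 (chromosome 17, 32685627 to 32703352) ranged from 163.5 to 202 CPM under liraglutide and from 171 to 208 CPM under PBS (-0.06 ± 0.12, adjusted p = 0.787). In both the groups overlapped, and the standard errors were the smallest of the 10 genes. The log2 ratio of Cyp4f14 to Cyp4f13 was -0.73, -0.59 and 0.38 in Lira161, Lira162 and Lira164 and 1.29, 0.41 and 1.16 in PBS155, PBS157 and PBS158. The liraglutide libraries were all lower, by 0.03 at the nearest pair, and the means differed by -1.27 (exact permutation p = 0.1, the smallest possible; 0.3 adjusted over the 6 pairs). For Cyp4f15 to Cyp4f14 the means of 1.69 ± 0.77 under liraglutide and 0.56 ± 0.60 under PBS came with an exact permutation p of 0.2 (n = 3 each).

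Cyp4v3, the mouse counterpart of the human omega-hydroxylase gene CYP4V2, which is mutated in Bietti crystalline dystrophy of the retina, fell. It was at 435, 321 and 377 CPM in Lira161, Lira162 and Lira164, against 547, 547 and 555 CPM in PBS155, PBS157 and PBS158. All liraglutide libraries were lower, and the PBS libraries lay close together. The gene (chromosome 8, 45304944 to 45333216, minus strand) averaged 378 ± 57.0 CPM under liraglutide and 549.6 ± 4.38 CPM under PBS, 1.46-fold lower (log2 fold change -0.54 ± 0.13, adjusted p = 0.0319). The call was kept without Lira161 or Lira164 and lost without Lira162 (-0.44, adjusted p = 0.105), PBS155 (0.0514), PBS157 (0.0808) or PBS158 (0.0954), with a lower level in all of these fits. Over all genes, the fits without Lira161 and Lira164 called 462 and 1496. Those without Lira162, PBS155, PBS157 and PBS158 called 393, 962, 653 and 414, against 1107 with every library.

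Levels can be compared between genes only per length, here as CPM per kilobase of annotated exons. On that scale Cyp4a14 (3171 ± 612) and Cyp4a10 (1914 ± 236) led under liraglutide, with no overlap between them. Under PBS, Cyp4a10 (1133 ± 371) and Cyp4a14 (785 ± 298) overlapped. Cyp4v3 followed in both groups, at 99.2 ± 14.96 CPM per kilobase under liraglutide and 144 ± 1.15 under PBS, and overlapped Cyp4f15 (77.4 ± 9.75) under liraglutide but not under PBS (80.9 ± 8.81). Below Cyp4f15 each gene overlapped the next in the order Cyp4a32, Cyp4a31, Cyp4a12a, Cyp4f14, Cyp4a12b and Cyp4f13 under liraglutide (66.3 to 15.3 CPM per kilobase). Under PBS the order was Cyp4a12a, Cyp4a32, Cyp4f14, Cyp4a12b, Cyp4a31 and Cyp4f13 (71.3 to 14.5), and Cyp4a31 did not overlap Cyp4f13. The place of Cyp4f13 rests on 4441 bp of exons in all its transcripts. With the 1752 bp of its longest coding transcript it would be at 38.9 under liraglutide and 36.6 under PBS.

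Of the other 10 Cyp4 rows in the table, 4 were tested, and edgeR called 0 of them, with 2 at an unadjusted p below 0.05 and 2 called by DESeq2, all higher. EdgeR called 1 of them with library totals, with a filter at a mean of 5 CPM, or without Lira164 or PBS155, and 2 with no filter beyond 1 count. Cyp4f17 was at 12.98 ± 2.18 CPM under liraglutide and 8.97 ± 0.21 CPM under PBS (log2 fold change 0.53 ± 0.14, adjusted p = 0.0523). Cyp4b1 was at 12.3 ± 1.49 CPM under liraglutide and 8.02 ± 2.08 CPM under PBS (0.61 ± 0.19, adjusted p = 0.0759). Cyp4f18, the leukotriene B4 hydroxylase of neutrophils, had between 7 and 21 counts per library, and summed neutrophil markers were at 2.12 to 2.99 CPM under liraglutide and 1.49 to 3.59 CPM under PBS. Cyp4x1, Cyp4a29-ps and Cyp4a30b-ps had 0 counts in all libraries.

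Genes of the steps beside and after omega-hydroxylation moved in both directions. Of 10 tested partners of omega-oxidation, 2 rose and 3 fell (median log2 fold change -0.25, against 0.01 for all genes tested). Beside this and the list counts that follow, edgeR called 4.08% of all genes tested higher and 4.69% lower. List counts at an unadjusted p below 0.05 or by DESeq2 have no such share by direction here, so they are description only. Aldh3a2, the fatty aldehyde dehydrogenase, rose to 1405 CPM under liraglutide, against 731 CPM under PBS (0.94 ± 0.12, adjusted p = 0.00508), and Por, the reductase that supplies electrons, rose by 0.74 ± 0.17 (adjusted p = 0.0287). Cyb5r3 (-0.74 ± 0.12, adjusted p = 0.00936) and Cyb5b (-0.75 ± 0.15, adjusted p = 0.0180), of the cytochrome b5 electron chain, and the alcohol dehydrogenase gene Adh4 (-1.28 ± 0.25, adjusted p = 0.0252) fell. Aldh3a2 and Cyb5r3 kept their calls whichever library was left out. Por was called only with Lira164 or PBS157 left out, and Adh4 only with Lira162 or Lira164 left out. Cyb5b was not called once Lira161, Lira162 or PBS158 was missing, and the adjusted p of these 3 genes reached 0.109.

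Of 17 tested genes of dicarboxylic acid transport and peroxisomal breakdown, 4 rose and none fell in edgeR's test, with 1 lower at an unadjusted p below 0.05 and 0 lower by DESeq2 (median 0.40). Pex11a, a peroxisome proliferation gene, rose by 1.00 ± 0.10 (adjusted p = 0.00273), and the carnitine acetyltransferase gene Crat by 0.73 ± 0.12 (adjusted p = 0.00870), both whichever library was left out. Ehhadh rose to 3779 CPM under liraglutide, against 1136 CPM under PBS (1.73 ± 0.34, adjusted p = 0.0269), and the thiolase gene Acaa1b rose by 0.66 ± 0.17 (adjusted p = 0.0401). Ehhadh was called only without Lira164 or PBS157 and Acaa1b only without Lira164 (otherwise adjusted p up to 0.108 and 0.129). The number of higher genes was 2 without Lira161, Lira162, PBS155 or PBS158 each, 3 without PBS157 and 6 without Lira164.

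Of 24 other PPAR-alpha targets and the receptor's own genes, 11 rose and none fell, 0 lower also at an unadjusted p below 0.05 and by DESeq2 (median 0.42). Those with the smallest p were Fgf21, a liver hormone gene (3.10 ± 0.27, at 48.7 CPM under liraglutide and 5.68 CPM under PBS), Txnip, which codes for a thioredoxin-binding protein (1.48 ± 0.17), Acot1, an acyl-CoA thioesterase gene (1.54 ± 0.18), and Slc22a5, a carnitine carrier gene (0.94 ± 0.12). Their adjusted p-values in edgeR lay between 0.00309 and 0.00507, and each of the 4 was called whichever library was left out. The log2 fold change was above 0 in 23 of these 24 genes and in 51.6% of all genes tested. Of all genes tested, 4.08% were called higher. The list was chosen with earlier results of these data known, so these shares describe it and test nothing. The number of higher genes was 6 without PBS155 or PBS157, 7 without Lira161, Lira162 or PBS158, and 10 without Lira164.

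Other P450 genes that act on arachidonic acid were lower where they passed the test. Their list also held epoxide hydrolase genes and Ptgr1, which is of neither kind. Of 17 tested, 4 fell and 0 rose in edgeR's test, with 2 higher at an unadjusted p below 0.05 and 1 higher by DESeq2 (median -0.34). The counts were 2 lower and 1 higher with library totals or with no filter beyond 1 count, and DESeq2 called 6 lower. The epoxygenase genes Cyp2j6 (-0.95 ± 0.13, adjusted p = 0.00581), Cyp2j5 (-0.60 ± 0.16, adjusted p = 0.0490) and Cyp2c50 (-1.23 ± 0.29, adjusted p = 0.0423) fell, as did Cyp2u1 (-1.53 ± 0.34, adjusted p = 0.0437), itself a fatty acid omega- and omega-1-hydroxylase. Cyp2j6 kept its call whichever library was left out. The others lost it without Lira161, PBS158 and further libraries (adjusted p up to 0.163), and the number of lower genes was 1 without Lira161 or PBS158, 2 without Lira162, PBS155 or PBS157, and 7, with 1 higher, without Lira164. Ephx2, the soluble epoxide hydrolase gene, was at 1581 CPM under liraglutide and 1542 CPM under PBS (0.04 ± 0.15, adjusted p = 0.910).

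Because the Cyp4a12 genes are male-biased and depend on growth hormone in mouse liver, other sex-biased genes are set beside them. Of 17 tested male-biased genes, Selenbp2 (-3.45 ± 0.51, adjusted p = 0.0190) and Cyp2u1 fell, and 0 rose in edgeR's test, at an unadjusted p below 0.05 or by DESeq2 (median -0.59, with 1 of 17 above 0). Of these 17 genes 5 were lower at an unadjusted p below 0.05 and 4 by DESeq2. The lower count was 1 with library totals, limma-voom, or without Lira161, Lira162 or PBS157, 3 without Lira164 and 0 without PBS158. Of 17 female-biased genes in the count table, 8 passed the filter on low counts and were tested, and 3 had 0 counts in all libraries. Of the 8, A1bg rose (3.74 ± 0.67, adjusted p = 0.0121), at 1.58 CPM under liraglutide and 0.11 CPM under PBS. It lay near the floor in every PBS library and passed the filter through the liraglutide libraries alone. None of the 8 fell, with 1 lower at an unadjusted p below 0.05 and 0 by DESeq2. The count of higher female-biased genes was 2 with library totals, with DESeq2, or without Lira162 or Lira164, and 0 with a filter at a mean of 5 CPM or without PBS158. Ghr, the growth hormone receptor gene, fell to 352 CPM under liraglutide, against 675 CPM under PBS (-0.94 ± 0.19, adjusted p = 0.0183), and Hnf4a, a hepatocyte transcription factor gene, rose by 0.53 ± 0.13 (adjusted p = 0.0338), the 2 called of 11 genes of that axis. Its lower count was 4 without Lira164, 3 with DESeq2, 2 without PBS155, and 0 without Lira161 or PBS158. Selenbp2 was called only with Lira162 or Lira164 left out, and Hnf4a only with Lira164 or PBS158 left out. A1bg was not called once PBS158 was missing, nor Ghr without Lira161 or PBS158, with adjusted p-values of the 4 genes up to 0.122.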

How the data were processed

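The authors' deposited data are a single table with a raw, whole-number count for each gene symbol in 6 libraries. STAR and mm10 appear in the submitters' processing notes. The sources used here give no counter, strand setting or handling of ambiguous reads. Column names show the group and a number that matches no replicate label, so each column has a group and no replicate.

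filterByExpr kept 12626 of the 16949 genes with at least 1 count. After TMM scaling, edgeR 4.0.16 (under R 4.3.3) fitted the group as its sole term (robust glmQLFit and glmQLFTest, two-sided), with Benjamini-Hochberg adjustment over all genes kept. A standard error is the log2 fold change over the square root of F. Log2 CPM had a prior count of 2, and count ratios one of 0.5. On simulated counts with the means and depths of these libraries, changes were planted in some of 12503 genes. The fit recovered 14.8% of 61 changes of 1.5-fold, 76.1% of 71 of 2-fold and 93.8% of 65 of 4-fold. It made 134 calls, 10 of them false. The real counts gave 1107 calls, so the adjusted threshold was stricter in the simulation and these shares may not hold for the real fit.

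Coding sequences come from the longest coding transcript in GENCODE M21 and were aligned with Biopython 1.88. Matplotlib 3.10.9 drew the figures. The text names all 10 members, up to 4 called genes of smallest p per list (where none was called, up to 2 given as values) and the 5 genes nearest to Cyp4a14 and to Cyp4a12a. Ephx2 and Cyp4f18 were added after their values were seen. The members and lists were chosen with earlier results of these data known. The alternatives were scaling (DESeq2 size factors, upper quartiles, library totals), filter (any gene with 1 count, or a mean of 5 CPM), test (DESeq2 1.42.0, which also brings its own scaling and filter, limma-voom with limma 3.58.1), near-identical genes summed, a prior of 5 in ratios, or a library left out.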

Additional observations from a re-analysis of the deposited data

How the results depend on the processing

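Among the 10 genes 1 was higher and 1 lower in every alternative with all 6 libraries, except that DESeq2's Wald test called 3 higher (Cyp4a14, Cyp4a10 and Cyp4a31). With 1 library left out, the number of higher genes ranged from 0 to 3 and that of lower genes from 0 to 2. The number of changed genes overall ranged from 393 without Lira162 to 1496 without Lira164, against 1107 with every library. Directions reversed only with a library left out, and only in values that did not pass the test: Cyp4a32 was at -0.11 without Lira161, and Cyp4a12b at 0.11 and Cyp4f15 at 0.030 without PBS157. Over the fits with a library left out, these genes ranged from -0.11 to 0.58 (Cyp4a32), -1.503 to 0.11 (Cyp4a12b) and -0.17 to 0.030 (Cyp4f15). The group difference in the log2 ratio of Cyp4a12b to Cyp4a12a, -0.03 in all libraries, was 0.21, 0.05 and 0.14 without Lira162, Lira164 or PBS157 (range -0.34 to 0.21), and that of Cyp4a31 to Cyp4a10, 0.19, was -0.011 without PBS158 (range -0.011 to 0.31). The cause was not tested. Cyp4a14 ranged from 1.72 to 2.23 and Cyp4v3 from -0.65 to -0.44 over these fits. A prior count of 5 reversed no ratio. No paired analysis was possible because the columns of the count table carry no replicate number of the labels. In the simulated counts, at 3 libraries a group, changes of 1.5-fold were mostly missed. That simulation held far fewer changed genes than were called here, so the share missed in the real counts is not known.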
